A study of Xenopus laevis with 8 samples.

Results

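The change in gene expression between blastula and gastrula in embryos without functional maternal or zygotic Wnt11b was taken from 4 of the 8 RNA-seq libraries of the series, the 2 M/Z libraries of stage 9 (late blastula) and the 2 M/Z libraries of stage 10.5 (gastrula), chosen by their labels. The series set *Xenopus laevis* embryos of 2 crosses side by side at these stages to ask how gene expression around gastrulation depends on *wnt11b*. M/Z embryos came from eggs of homozygous *wnt11b* mutant females and mutant sperm, and +/Z embryos, heterozygous controls, came from wild-type eggs and mutant sperm, so that every embryo sequenced inherited a mutant allele from its father. The frogs were of the inbred J-strain, and no embryo was treated. Each library was made from a pool of 3 whole embryos, and there were 2 pools in each of the 4 groups of cross and stage. The allele is a small deletion near the start of *wnt11b.L*, the only *wnt11b* copy of this genome, that ends the reading frame early and leaves the transcript in place, and it descends from 1 founder female. The females behind the pools are not named in the sources used here, so the mother, the clutch and the genotype cannot be told apart between M/Z and +/Z. The methods call the pools biological replicates but do not say whether they came from separate clutches, so the p-values measure the spread between these pools.

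*Xenopus* embryos pass through a series of fast divisions on RNA and protein stored in the egg, and large-scale transcription of the embryo's own genome begins at the midblastula transition, shortly before stage 9. Between this stage and gastrulation, vegetal T-box factors and Nodal ligands switch on the mesendoderm, maternal β-catenin switches on the organiser on the dorsal side, and BMP and Wnt8 ligands pattern the ventral side, while many maternal transcripts lose their poly(A) tails and are degraded. Wnt11b is a maternal, vegetally localised Wnt ligand studied for its part in the dorsal axis and in the cell movements of gastrulation.

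Library totals ran from 31428223 to 37265579 counts in the 4 M/Z libraries and from 24720921 to 37265579 in all 8, and 25448 of the 49086 genes listed passed the filter on low counts. Levels are given as CPM, each count scaled to a common library size after correction by TMM, which allows for a few abundant genes taking up reads. In an M/Z library 3 counts, taken as the floor of detection, corresponded to between 0.0715 and 0.0925 CPM, which covers counting error only. The targeted gene was measured first, although its deletion cannot be seen in counts per gene. The CPM of *wnt11b.L* was 32.2 and 37.4 in the stage 9 M/Z pools and 55.2 and 40.3 in the stage 10.5 M/Z pools. Its level did not change by the test in M/Z embryos (log2 change 0.46 ± 0.23 (SE, n = 2 pools a stage), edgeR adjusted p = 0.16) and rose in +/Z embryos (0.88, edgeR adjusted p = 0.012), and the difference between the changes did not pass (edgeR adjusted p = 0.64). Markers of tissues that form later were used to check the sample: 31 of the 41 listed gene copies were too low to be tested, and the muscle actin *actc1.L* and *actc1.S*, the liver genes *fga.L* and *apoa1.L* and the globin *hba3.L* were at 0 counts in the M/Z libraries. The pigment gene *dct.L* was present from stage 9 at 15.6 and 15.1 CPM, and the neuronal gene *elavl3.L* rose from 0.334 and 0.141 CPM to 11.2 and 6.84 CPM. Of the 10 copies tested 6 rose in M/Z, 60% against 16.7% of all genes tested, and 0 fell. Their median log2 change was 1.46, and in +/Z 5 rose and 0 fell. Of 11 copies listed as ovary somatic cell markers, 3 were tested. The steroid enzyme *cyp17a1.L* made up most of their summed level (80.8 and 84.3 CPM at stage 9, and 62.4 and 67.0 CPM at stage 10.5). It was at 79.8 and 83.1 CPM at stage 9 and 57.9 and 65.0 CPM at stage 10.5. In +/Z the sums were 102 and 85.3 CPM and then 42.5 and 44.5 CPM. Whether this RNA came from ovary cells or was stored in the egg was not tested. It was therefore not read as a sign of ovary cells in the pools.

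The M/Z pools of stage 10.5 differed from each other in 1 direction over genes that changed between the stages. Between the replicates of a group, the absolute log2 difference of a gene had a median of 0.219 for M/Z at stage 9 and 0.373 for M/Z at stage 10.5, and 0.230 and 0.374 for +/Z. The spread over all genes was thus alike in the crosses, but within the M/Z stage 10.5 pair it ran in 1 direction over the genes that the M/Z test called: replicate 1 was higher than replicate 2 for 87.0% of the genes that rose and lower for 90.5% of the genes that fell, with median log2 ratios of replicate 2 to replicate 1 of -0.41 and 0.51. For the same genes in the +/Z pair at stage 10.5 the medians were -0.08 and 0.14. Over the genes that rose and fell in +/Z the medians of the M/Z pair were nearly as large, -0.36 and 0.48. Those of the +/Z pair over these genes were 0.03 and 0.02. The study also describes variability across its replicates, with M/Z replicates 1 and 2 as its example, and relates it to the variable phenotype. Whether the pools had reached the same age within the stage is not stated in the sources used here. Neither point was tested. Counts of called genes are also given without replicate 1 and without replicate 2 of the stage 10.5 M/Z pools.

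In M/Z embryos 4239 genes rose between stage 9 and stage 10.5, 16.7% of the genes tested, and 3980 fell, 15.6% (edgeR quasi-likelihood test, Benjamini-Hochberg adjusted p under 0.05). A rise of at least 2-fold was found for 3059 of them and a fall of at least 2-fold for 2587. The median log2 change was 1.87 over the risen genes (1.76 when the 194 genes at 0 in both stage 9 pools were set at the fold that the floor allows) and -1.16 over the fallen genes, against 0.02 over all tested genes. In whole embryos, fewer cells of a type and less RNA per cell cannot be told apart. Without stage 10.5 replicate 2, 4408 genes rose and 4636 fell, whereas without stage 10.5 replicate 1 the counts were 2424 and 1947. Leaving out stage 9 replicate 1 gave 1884 and 1448, and leaving out stage 9 replicate 2 gave 2337 and 1942. Without a composition factor the median change of all genes moved to -0.18 and the calls split into 3232 risen and 5395 fallen, 37.5% risen against 51.6% with TMM. Upper-quartile factors moved them the other way, to a median of 0.16 with 5166 risen and 3234 fallen, 61.5% risen.

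The same test in +/Z embryos found 5928 risen genes (23.3%) and 5905 fallen genes (23.2%), with median log2 changes of 1.72 and -1.37. Counts of gene lists in +/Z, given below, stand against these larger shares. Most genes called in M/Z were called the same way in +/Z: 3605 genes rose in both, 85.0% of the M/Z and 60.8% of the +/Z risen genes, and 3390 fell in both, 85.2% and 57.4%. Among the genes called in both, the rise was smaller in M/Z for 2442 (67.7%) and the fall was smaller in M/Z for 2627 (77.5%). A further 2310 genes rose in +/Z without passing in M/Z, and 2077 of these had a positive log2 change in M/Z. Likewise 2507 genes fell in +/Z without passing in M/Z, of which 2242 had a negative change there. The test of the difference between the 2 changes passed for 5 genes with a higher change in M/Z (0.0196% of those tested) and 7 with a lower one (0.0275%), and 2844 genes (11.2%) had an unadjusted p under 0.05. DESeq2 called 111 higher and 167 lower, and edgeR called 433 and 299 without stage 10.5 replicate 1 of M/Z, 14 and 8 without its replicate 2, 21 and 26 without stage 10.5 replicate 1 of +/Z, and 5 and 16 without replicate 2 of +/Z. Leaving out either stage 9 pool left 0 higher, and 2 lower for M/Z pools or 0 for +/Z pools.

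**Figure D1:**
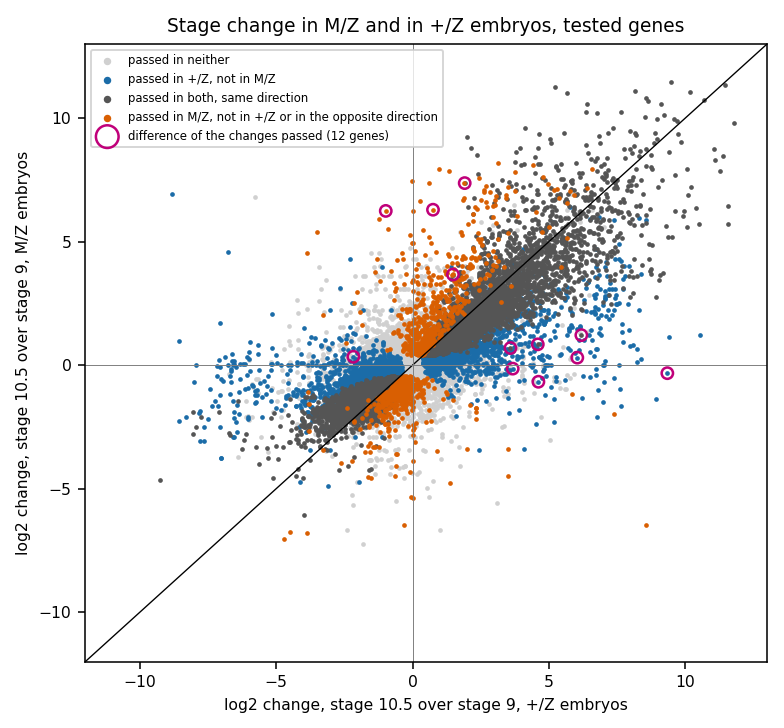
Log2 change from stage 9 to stage 10.5 of each tested gene in +/Z embryos (x axis) and M/Z embryos (y axis), from 1 fit over all 8 libraries, with genes coloured by the comparison in which they passed, the line of equal change in black and the 12 genes with a tested difference circled. The 3605 genes that rose in both and the 3390 that fell in both fall in the upper right and lower left corners, and 67.7% and 77.5% of them have the smaller change in M/Z. Fitted values of genes at 0 in 1 stage depend on the prior count and are no measure of size.

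Switching on from the floor was more common than switching off. There were 120 genes with at most 3 counts in both stage 9 M/Z pools and at least 1 CPM in both stage 10.5 M/Z pools, and 2 genes with the reverse pattern. The same criteria gave 191 and 15 genes in +/Z, and 52 genes were switched on in both crosses. At stage 9, 3 counts corresponded to 0.0715 and 0.0844 CPM in M/Z and to 0.0967 and 0.115 CPM in +/Z. The limit was thus looser in the shallower +/Z libraries, and the numbers of the crosses are not directly comparable.

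The 10 largest rises among abundant genes were of genes near or at the floor at stage 9. The keratin *krt12.S*, a larval epidermal structural gene, was at 0.0238 and 0.0281 CPM at stage 9 and at 95 and 30.9 CPM at stage 10.5. From its 1 count in each stage 9 pool the ratio was 2480, with a 95% counting interval of 686 to 20500. The GATA factor *gata4.S*, which acts in endoderm and heart, was at 0.0477 and 0.0281 CPM and then at 47.4 and 32.2 CPM, a ratio of 1030 (354 to 5020). The posterior homeobox gene *cdx1.S* was at 0.0477 and 0 CPM and then at 31.7 and 8.69 CPM, and the Wnt co-receptor kinase *ror2.L* was at 0.0477 and 0.0563 CPM and then at 42.4 and 21.5 CPM. For both the lower of the stage 10.5 values was that of replicate 2. The G protein subunit *gnb3.S* was at 0 in both stage 9 pools and at 12.6 and 8.23 CPM at stage 10.5, at least 97.5-fold higher. The BMP-responsive ventral factor *gata2.S* was at 0.0953 and 0.141 CPM and then at 95.1 and 74.8 CPM (log2 change 9.46 ± 0.60, edgeR adjusted p = 2.1e-05). The remaining genes were both copies of the zinc-finger gene *osr2* (728 and 564 times higher by counts for *osr2.S* and *osr2.L*), *trim29.L* (log2 change 9.40 ± 0.74, edgeR adjusted p = 5.1e-05) and LOC108705666, listed as XB22063314.S (9.15 ± 0.76, edgeR adjusted p = 6.1e-05). For these 10 genes the stage 9 and stage 10.5 pools did not overlap by the rule that chose them, all 10 rose in +/Z too, and for none did the difference between the crosses pass, with edgeR adjusted p from 0.24 to 1.0.

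The 10 largest falls among abundant genes included regulators of stored RNA, a maternal ectodermal factor and both copies of a Notch-target repressor. The Notch-target repressor *hes7.1.L* was at 75.7 and 96.9 CPM at stage 9 and at 2.1 and 5.15 CPM at stage 10.5 (log2 change -4.58 ± 0.38, edgeR adjusted p = 6.1e-05), and its homeolog *hes7.1.S* fell from 10.2 and 14.6 CPM to 0.865 and 0.432 CPM. The CCCH zinc-finger proteins of the ZFP36 family bind AU-rich elements and promote decay of messenger RNA. The copy *zfp36l2.1.S* fell from 120 and 140.5 CPM to 3.75 and 12.6 CPM, and *zfp36l2.2.L* from 188 and 217 CPM to 10.6 and 30.9 CPM. The polyadenylation factor *cpeb1.L*, which controls translation of stored RNA in the oocyte, fell from 148 and 170 CPM to 8.82 and 23.5 CPM (-3.30 ± 0.43, edgeR adjusted p = 0.00061), and *cpeb1.S* from 89.6 and 108 CPM to 8.76 and 13.4 CPM. The maternal forkhead factor *foxi2.S*, an ectodermal activator, fell from 136 and 162 CPM to 4.50 and 24.7 CPM, and the antiproliferative gene *btg3.S* from 109 and 116 CPM to 2.54 and 14.3 CPM. In these and in *zfand4.S* and *c1orf95.S* the stage 9 and stage 10.5 pools did not overlap, by the rule that chose them. Stage 10.5 replicate 2 kept the higher level in 9 of the 10 genes, *hes7.1.S* being the exception. The same held for 90.5% of all genes that fell in M/Z. All but *c1orf95.S* also fell in +/Z, where *c1orf95.S* was near the floor from stage 9 at 0.290 and 0.153 CPM.

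Endoderm genes, mostly transcription factors, had the largest share of risen copies among the gene lists. Of 28 tested copies (29 listed), 27 rose (96.4%) and 1 fell (3.57%), against 16.7% and 15.6% of all genes tested. The median log2 change was 3.27 (2.90 with the 2 copies at 0 in 1 stage set at their bound) against 0.02 over all tested genes. The homeobox gene *mixer.L*, a Nodal-responsive activator of endoderm, was at 3.81 and 3.83 CPM at stage 9 and at 501 and 308.5 CPM at stage 10.5. This rise of 6.73 ± 0.33 on the log2 scale (edgeR adjusted p = 9.3e-06) left the stages far apart in both pools. Its homeolog *mixer.S* rose from 2.88 and 2.14 CPM to 166 and 118 CPM, and the related *mix1.S* from 14.0 and 14.3 CPM to 249 and 194 CPM. The HMG-box factor *sox17a*, needed for endoderm formation, rose in both copies, *sox17a.L* from 9.53 and 13.8 CPM to 79.9 and 68.2 CPM and *sox17a.S* from 7.37 and 9.65 CPM to 79.9 and 31.8 CPM. The endodermal peptidase gene *darmin.L* was at 0 in both stage 9 pools and at 6.17 and 0.955 CPM at stage 10.5, at least 11.3-fold higher. The exception was *sox7.L*, whose RNA is maternal and vegetal, which fell from 64.0 and 69.6 CPM to 13.5 and 38.2 CPM (-1.37 ± 0.39, edgeR adjusted p = 0.023) and in +/Z to 3.36 and 2.63 CPM (-4.49). The difference for *sox7.L* did not pass (edgeR adjusted p = 0.13), and its fall in M/Z was no longer called without stage 9 replicate 1 (-1.44, edgeR adjusted p = 0.077) or without stage 9 replicate 2 (-1.32, edgeR adjusted p = 0.088). In +/Z 23 copies rose and 1 fell, with a median of 2.89. The count of risen copies in M/Z was 26 without stage 10.5 replicate 2 and 23 without replicate 1. The test of the difference passed for 0 of the 28 by edgeR, with 12 at an unadjusted p under 0.05, against 11.2% of all tested genes. DESeq2 called 4 of the 28, and 111 higher and 167 lower over all genes. Reads of the tandem *sox17b* and *bix1* copies may be divided between them by the quantification.

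Mesodermal and marginal zone genes rose in 40 of 58 tested copies (62 listed), 69% against 16.7% of all genes tested. Only 1 fell (1.72% against 15.6%) and 17 did not pass. The median log2 change was 3.13 (2.45 with the 2 copies at 0 set at their bound). The pan-mesodermal T-box gene brachyury was at 0.429 and 0.197 CPM at stage 9 and at 56.4 and 22.7 CPM at stage 10.5 for *t.L*, and at 4.46 and 3.49 CPM and then 326 and 171 CPM for *t.S* (log2 change 5.96 ± 0.37, edgeR adjusted p = 2.1e-05). The paraxial protocadherin *pcdh8.2.L*, which acts in cell sorting of the involuting mesoderm, rose from 0.119 and 0.450 CPM to 187 and 92.8 CPM. The T-box factor *vegt*, maternal in the vegetal pole and made again in the marginal zone, rose 1.43 ± 0.16 and 1.36 ± 0.16 on the log2 scale in *vegt.L* and *vegt.S*, *vegt.L* from 227 and 263 CPM to 736 and 585 CPM. The muscle determination gene *myod1* did not move as 1 gene: *myod1.L* fell from 8.32 and 14.5 CPM to 4.53 and 5.76 CPM (-1.15 ± 0.33, edgeR adjusted p = 0.026), and *myod1.S*, at 1.07 and 1.66 CPM and then 3.37 and 1.70 CPM, did not pass (0.90 ± 0.42, edgeR adjusted p = 0.13). In +/Z *myod1.L* fell as well (-2.36, edgeR adjusted p = 0.00066), and *myod1.S* rose (2.50, edgeR adjusted p = 0.0015). The difference between the crosses passed for neither copy (edgeR adjusted p = 0.40 for *myod1.L* and 0.39 for *myod1.S*). The forkhead gene *foxc2.L* rose from 0.215 and 0.422 CPM to 16.3 and 6.16 CPM, whereas *foxc2.S* stayed at or under 1.90 CPM and did not pass. In +/Z 47 copies rose and 2 fell, with a median of 3.50, and in M/Z 47 rose without stage 10.5 replicate 2 and 34 without replicate 1. In M/Z 51 of the 58 copies were higher in stage 10.5 replicate 1 than in replicate 2, and in +/Z 45 were. Measured from the stage 9 mean, the median log2 changes were 3.36 and 1.65 in M/Z and 3.72 and 2.79 in +/Z. The difference passed for 0 of the 58 by edgeR and 2 were called by DESeq2. At an unadjusted p under 0.05 by edgeR there were 14, against 11.2% of all tested genes.

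BMP pathway and ventral genes rose in 30 of 43 tested copies (44 listed), fell in 6 and did not pass in 7, with a median log2 change of 2.31. Risen copies made up 69.8%, against 16.7% of all genes tested, and fallen copies 14%, against 15.6%. Sizzled, a secreted inhibitor of the proteases that cut Chordin, had nearly the same level in both stage 10.5 pools: *szl.L* was at 1.1 and 1.01 CPM at stage 9 and at 88.5 and 89.2 CPM at stage 10.5 (log2 change 6.39 ± 0.23, edgeR adjusted p = 2.6e-06), and the copy listed as *szl* rose from 4.08 and 4.95 CPM to 117 and 101 CPM. The ligand *bmp7.2.L* rose from 144 and 134 CPM to 792 and 547 CPM, whereas its homeolog *bmp7.2.S* fell from 29.6 and 31.9 CPM to 13.9 and 22 CPM (-0.78 ± 0.27, edgeR adjusted p = 0.049). The ventral ligand *bmp4.L* rose from 9.61 and 11.1 CPM to 54.5 and 39.5 CPM, and the inhibitor of differentiation *id3.S*, a BMP target, rose from 58.4 and 66.1 CPM to 616 and 582 CPM. The homeobox repressor *ventx1.1.L*, another BMP target, rose from 3.41 and 4.19 CPM to 94.1 and 57.0 CPM. The maternal ligand *bmp2* fell in both copies, by 1.60 in *bmp2.S* and 1.43 in *bmp2.L* on the log2 scale, with *bmp2.S* at 56.2 and 55.0 CPM and then 10.9 and 25.9 CPM. In +/Z 30 copies rose and 7 fell, with a median of 2.25, and in M/Z the risen count was 30 without stage 10.5 replicate 2 and 29 without replicate 1. The summed level of the list in the stage 10.5 pools was 5260 and 4140 CPM in M/Z, and 4690 and 4520 CPM in +/Z.

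Organiser and dorsal genes rose in 21 of 36 tested copies (37 listed), 58.3% against 16.7% of all genes tested. They fell in 2 (5.56% against 15.6%) and did not pass in 13. The median log2 change was 2.51 (1.98 with the 3 copies at 0 set at their bound). The secreted Wnt antagonist *frzb.S* was at 0.858 and 1.27 CPM at stage 9 and at 191 and 100.1 CPM at stage 10.5 (7.1 ± 0.42, edgeR adjusted p = 1.8e-05), the forkhead factor *foxa4.S* at 5.29 and 4.08 CPM and then 148 and 107 CPM, and the head homeobox gene *otx2.L* at 0.334 and 0.366 CPM and then 73.8 and 29.1 CPM. These 3 genes were far above stage 9 in both pools. In +/Z at stage 10.5 they were higher than in either M/Z pool, at 270 and 356 CPM for *frzb.S*, 247 and 247 CPM for *foxa4.S* and 104 and 129.5 CPM for *otx2.L*. The BMP antagonist *chrd.L*, which encodes Chordin, was at 4.79 and 4.16 CPM at stage 9, 98.8 CPM in stage 10.5 replicate 1 and 13.3 CPM in replicate 2. It rose by the test (3.64 ± 0.74, edgeR adjusted p = 0.0056), and in +/Z it was at 13.3 and 7.1 CPM and then 245 and 257 CPM. Cerberus, an antagonist of Nodal, BMP and Wnt ligands, was at 0.930 and 0.957 CPM at stage 9 and at 142 and 24.4 CPM at stage 10.5 for *cer1.S*, against 432 and 404 CPM in +/Z at stage 10.5. The homeobox gene goosecoid, named here after its values were seen, rose from 0.715 and 0.647 CPM to 28.1 and 8.38 CPM for *gsc.L* (4.73 ± 0.65, edgeR adjusted p = 0.00077).

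None of the tested copies of *sia1*, *sia2* and *nodal3*, direct targets of maternal β-catenin on the dorsal side, passed as risen. The homeobox gene *sia1.L* was at 2.03 and 2.98 CPM at stage 9 and at 4.64 and 2.62 CPM at stage 10.5 (0.54 ± 0.39, edgeR adjusted p = 0.32), and *sia2.S* fell from 2.29 and 2.73 CPM to 0.173 and 0.0308 CPM. The Nodal-related ligand *nodal3.1.L* was at 11.4 and 10.2 CPM and then at 21.9 and 6.93 CPM, which overlaps the stage 9 pools (0.42 ± 0.50, edgeR adjusted p = 0.55, and -0.64 without stage 10.5 replicate 1), and *nodal3.2.L* fell from 6.51 and 8.72 CPM to 3.06 and 1.33 CPM (-1.79 ± 0.41, edgeR adjusted p = 0.010). In +/Z none of these copies rose either: *sia1.S* and *sia2.S* fell, and *sia1.L*, *nodal3.1.L* and *nodal3.2.L* did not pass (-0.29, 0.78 and -0.65). The levels differed, however. At stage 9 in +/Z, *sia1.L* was at 12.1 and 8.285 CPM, *nodal3.1.L* at 24.5 and 18.0 CPM and *nodal3.2.L* at 22.05 and 18.4 CPM. Each of these values lay above both stage 9 M/Z pools. Reads of the tandem *nodal3* copies may be divided between them. All 36 organiser copies were higher in stage 10.5 replicate 1 than in replicate 2, with a median log2 ratio of -1.33, and in the +/Z pair 17 of 36 were higher in replicate 1. Measured from the stage 9 mean, the median log2 change of the list was 2.62 in replicate 1 and 0.61 in replicate 2 of M/Z, and 2.83 and 2.79 in +/Z. The summed level was 1420 and 631 CPM in the M/Z stage 10.5 pools, 186 and 212 CPM at stage 9, and 2470 and 2590 CPM in +/Z at stage 10.5. In +/Z 23 copies rose and 2 fell, with a median of 3.19. The difference passed for 0 of the 36 by edgeR and 0 were called by DESeq2. At an unadjusted p under 0.05 by edgeR there were 6, against 11.2% of all tested genes.

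**Figure D2:**
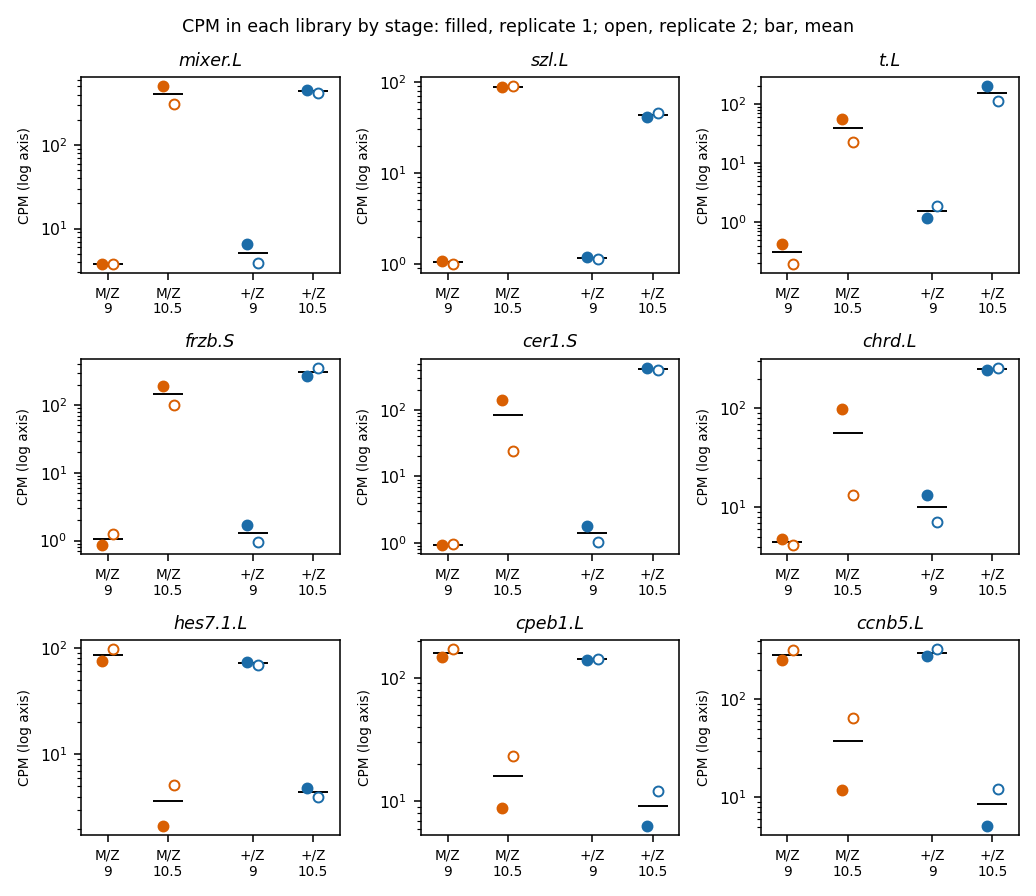
CPM on a log axis in each of the 8 libraries, by cross and stage, for 3 mesendodermal or ventral genes (*mixer.L*, *szl.L*, *t.L*), 3 organiser genes (*frzb.S*, *cer1.S*, *chrd.L*) and 3 falling genes (*hes7.1.L*, *cpeb1.L*, *ccnb5.L*), with replicate 1 filled, replicate 2 open and the mean as a bar. The M/Z stage 10.5 pools sit together for *szl.L*, at 88.5 and 89.2 CPM, and apart for *chrd.L*, at 98.8 and 13.3 CPM.

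Nodal pathway genes moved in both directions. Of 37 tested copies (39 listed), 11 rose (29.7%), 12 fell (32.4%) and 14 did not pass, against 16.7% risen and 15.6% fallen of all genes tested. The median log2 change was -0.20 (-0.41 without a composition factor and -0.07 with upper-quartile factors). In +/Z 11 rose and 16 fell (-0.62). Among the ligands, *nodal1.S* was at 0 in both stage 9 pools and at 1.18 and 0.678 CPM at stage 10.5, at least 8.03-fold higher, and *nodal2.L* rose from 0.405 and 0.253 CPM to 10.5 and 9.06 CPM. The vegetal TGF-β ligand *gdf3.S* rose from 29.1 and 30.9 CPM to 183 and 141 CPM, whereas the early ligand *nodal5.3.L* fell from 2.19 and 3.1 CPM to 0.231 and 0.247 CPM (-3.45 ± 0.43, edgeR adjusted p = 0.00047). The feedback inhibitor *lefty.L* rose from 5.98 and 7.88 CPM to 72.6 and 42 CPM. The maternal Smad partner *foxh1* fell in both copies, *foxh1.S* from 36.0 and 36.6 CPM to 8.01 and 11.5 CPM. Type I and type II activin receptors and *smad2* and *smad3* copies were among the fallen members. The common Smad *smad4.1.L* rose from 4.46 and 4.14 CPM to 136 and 89.9 CPM (4.71 ± 0.35, edgeR adjusted p = 4e-05), and the co-receptor *tdgf1.3.L* rose from 155 and 167 CPM to 283 and 250 CPM (0.73 ± 0.15, edgeR adjusted p = 0.007).

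Among 65 tested copies of Wnt ligands, receptors and feedback genes (70 listed), 23 rose, 15 fell and 27 did not pass. These shares, 35.4% risen and 23.1% fallen, stand against 16.7% and 15.6% of all genes tested. The median log2 change was 0.33 (0.12 without a composition factor). Zygotic ligands rose: *wnt8a.L*, a ventrolateral ligand of the β-catenin pathway, was at 5.94 and 8.61 CPM at stage 9 and at 160 and 72.0 CPM at stage 10.5 (4.00 ± 0.37, edgeR adjusted p = 0.00010), and *wnt5b.L*, a ligand of the branch that controls cell polarity, rose from 0.572 and 0.619 CPM to 32.6 and 11.2 CPM. The zygotic relative of the mutated gene, *wnt11.L*, was at 0 and 0.0281 CPM at stage 9, 0.836 CPM in stage 10.5 replicate 1 and 0.0308 CPM in replicate 2. The stage 10.5 value of replicate 2 is 1 count, below the floor, and the call of a rise (edgeR adjusted p = 0.045) rests on replicate 1. In +/Z *wnt11.L* was at 1.83 and 2.54 CPM at stage 10.5. The maternal ligand *wnt5a.S* fell from 19.5 and 19.7 CPM to 5.97 and 11.2 CPM. Among receptors *ror2.L* rose and *fzd1.L* fell from 46.7 and 49.8 CPM to 5.05 and 11.8 CPM. The transducer β-catenin rose in both copies, *ctnnb1.L* from 445 and 461 CPM to 1032 and 825 CPM, and the nuclear partner *lef1.L* rose from 0.119 and 0.0844 CPM to 17.9 and 7.18 CPM. In +/Z 30 copies rose and 22 fell, with a median of 0.82.

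FGF ligands, receptors and feedback genes rose in 23 of 43 tested copies (46 listed), 53.5% against 16.7% of all genes tested. The 7 fallen copies were 16.3%, near the 15.6% of all genes. The median log2 change was 0.67 in M/Z and 0.79 in +/Z, where 21 rose and 8 fell. The ligand *fgf3.S* was at 0.0715 and 0.0844 CPM at stage 9 and at 14.1 and 5.3 CPM at stage 10.5, a ratio of 127 by counts (58.1 to 348). The receptor *fgfr2.S* rose from 0.167 and 0.113 CPM to 35.6 and 23.0 CPM, whereas *fgfr1.L*, an abundant maternal receptor RNA, fell from 169 and 166 CPM to 92.1 and 82.7 CPM (-0.94 ± 0.15, edgeR adjusted p = 0.0016). The feedback inhibitor *spred1.L* rose from 0.858 and 0.563 CPM to 17 and 8.94 CPM. Without stage 10.5 replicate 1 the count of risen copies was 14.

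Genes of gastrulation movements rose in 29 of 73 tested copies (75 listed), 39.7% against 16.7% of all genes tested. They fell in 8, 11% against 15.6%, and did not pass in 36. The median log2 change was 0.48 (0.27 without a composition factor), and in +/Z 37 rose and 6 fell (0.72). E-cadherin, the adhesion molecule of the ectoderm, was at 1.67 and 1.24 CPM at stage 9 and at 182 and 126 CPM at stage 10.5 for *cdh1.S* (6.72 ± 0.62, edgeR adjusted p = 0.00010), and the maternal C-cadherin *cdh3.L* rose from 207 and 204 CPM to 493 and 377 CPM. Fibronectin, the matrix on which mesoderm migrates, was abundant at both stages and did not pass for *fn1.S*, at 549 and 485 CPM and then 771 and 772 CPM (0.58 ± 0.24, edgeR adjusted p = 0.093). The planar polarity gene *prickle2.S* fell from 8.18 and 6.28 CPM to 2.54 and 3.42 CPM. The adhesion gene *flrt2.S* fell in M/Z, from 4.1 and 4.62 CPM to 1.79 and 1.45 CPM, and rose in +/Z, from 0.387 and 0.267 CPM to 0.955 and 0.907 CPM, and the test of that difference did not pass (edgeR adjusted p = 0.13). Without stage 10.5 replicate 1 of M/Z 22 copies rose and 2 fell.

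The ectoderm lists differed from each other. Epidermal genes rose in 26 of 40 tested copies (42 listed) and fell in 2, which is 65% and 5% against 16.7% and 15.6% of all genes tested. The median log2 change was 1.49 in M/Z and 1.24 in +/Z, where 24 rose and 3 fell. The homeobox gene *dlx3.S* was at 0.0477 and 0.141 CPM at stage 9 and at 27.9 and 9.59 CPM at stage 10.5, the keratin *krt5.7.S* at 0.310 and 0.760 CPM and then 129 and 34.9 CPM, and the adhesion gene *epcam.S* at 508 and 601 CPM and then 1360 and 970.1 CPM. The fallen copies were *foxi2.S* and *foxi2.L*. Neural plate genes rose in 11 of 49 tested copies (51 listed), fell in 9 and did not pass in 29, which is 22.4% and 18.4% against 16.7% and 15.6% of all genes tested, with a median of -0.07 (0.07 with upper-quartile factors), and in +/Z 24 rose and 7 fell, with a median of 0.95. The repressor *zeb2.S* rose from 0.453 and 0.310 CPM to 17.9 and 6.63 CPM, and *irx3.L*, a homeobox gene of the prospective neural plate, from 0.930 and 1.01 CPM to 29.6 and 11.4 CPM. The abundant *sox3.S*, a neural competence factor with a maternal store, did not pass, at 632 and 662 CPM and then 605 and 627 CPM. The forebrain gene *lhx5.L* was at 23.6 and 25.4 CPM and then 37.9 and 27.3 CPM (0.41 ± 0.25, edgeR adjusted p = 0.24), and in +/Z it rose (1.82, edgeR adjusted p = 0.00052). *sox11.L*, a neural SoxC factor named here after its values were seen, fell in M/Z from 152 and 153 CPM to 114 and 88.9 CPM and rose in +/Z from 72.3 and 69.3 CPM to 126 and 107 CPM, with an edgeR adjusted p of 0.13 for the difference. For the list the difference passed for 0 of 49 by edgeR, with 17 at an unadjusted p under 0.05 against 11.2% of all tested genes, and 6 called by DESeq2. It passed for 14 copies without stage 10.5 replicate 1 of M/Z and for 0 without replicate 2.

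**Figure D3:**
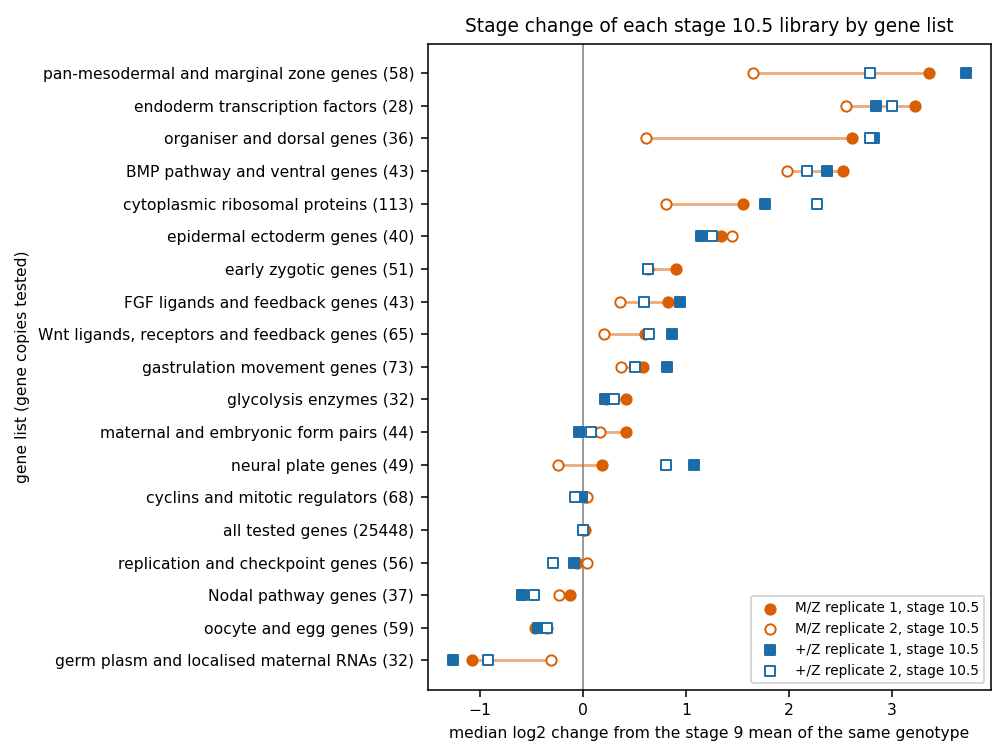
Median log2 change of each gene list (y axis, with the number of gene copies tested) in each stage 10.5 library, measured from the mean of the 2 stage 9 libraries of the same cross (x axis), for M/Z in orange circles and +/Z in blue squares, replicate 1 filled and replicate 2 open. The M/Z replicates lie far apart for the organiser list, at 2.62 and 0.61, and for the mesodermal and marginal zone list, at 3.36 and 1.65. The medians lie close for the epidermal list, at 1.34 and 1.45, although 30 of its 40 copies were higher in replicate 1.

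Lists of maternal RNAs held more fallen than risen copies, although most of their copies did not pass as fallen. Of 32 tested copies of germ plasm and localised maternal RNAs (33 listed), 13 fell, 4 rose and 15 did not pass in M/Z. The fallen share was 40.6%, against 15.6% of all genes tested, and the risen share was below the 16.7% of all genes tested. The median log2 change was -0.68, and in +/Z 20 fell and 6 rose (-1.09). The germ cell gene *dnd1.L*, an RNA-binding protein that protects germ plasm transcripts, was at 51.8 and 59.0 CPM at stage 9 and at 7.24 and 19.6 CPM at stage 10.5 (-2.05 ± 0.38, edgeR adjusted p = 0.0037). The germ cell helicase *ddx4.L* was among the risen copies, at 55.3 and 62.2 CPM and then 95 and 92.4 CPM. So were *vegt.L* and *vegt.S*, described above as made again in the marginal zone. In 25 of the 32 copies replicate 1 was the lower of the stage 10.5 pools, with a median log2 ratio of replicate 2 to replicate 1 of 0.58, and the fallen count was 19 without replicate 2 and 8 without replicate 1.

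Oocyte and egg genes fell in 24 of 59 tested copies (61 listed), rose in 4 and did not pass in 31, with a median log2 change of -0.40. The shares were 40.7% fallen and 6.78% risen, against 15.6% and 16.7% of all genes tested. In 18 of the 59 copies M/Z stage 10.5 replicate 1 was the higher pool, and in +/Z this held for 9 of 59, with medians from the stage 9 mean of -0.47 and -0.35 in M/Z and -0.44 and -0.35 in +/Z, so that the list did not set the M/Z pair apart. The maternal cyclin *ccna1.L* was at 765 and 883 CPM at stage 9, 107 CPM in stage 10.5 replicate 1 and 355 CPM in replicate 2, against 42.3 and 60.6 CPM in +/Z at stage 10.5. The egg cyclin *ccnb5.L* fell likewise, from 252 and 318 CPM to 11.9 and 64.0 CPM. The meiotic inhibitor *fbxo43.L*, which holds the egg in metaphase, fell from 86.8 and 88.2 CPM to 5.74 and 15.0 CPM. The elongation factor *eef1a1o.S*, called the oocyte form, rose from 278 and 374 CPM to 3402 and 2283 CPM (3.12 ± 0.24, edgeR adjusted p = 4.5e-05), and its reads may be shared with the near-identical somatic form *eef1a1.L*, which rose from 247 and 311 CPM to 2244 and 1313 CPM.

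In several pairs of a maternal and an embryonic form or family member, named here as examples, the members moved in opposite directions. This did not hold for *eef1a1o.S* and *eef1a1.L*, and the pairs that moved in opposite directions were not counted. The POU factors *pou5f3.1.L* and *pou5f3.2.L*, zygotic regulators of competence, rose from 26.2 and 26.7 CPM to 740 and 394 CPM and from 316 and 344 CPM to 2516 and 1768 CPM, whereas the oocyte form *pou5f3.3* fell in both copies, by 1.32 in *pou5f3.3.L* and 1.57 in *pou5f3.3.S* on the log2 scale. The antiproliferative gene *btg4.S*, an adaptor of deadenylation in the egg, fell from 199 and 219 CPM to 18.7 and 32.4 CPM, and its relative *btg1.L* rose from 29.5 and 40.0 CPM to 481 and 205 CPM. The mitotic kinase *wee2.L*, the maternal form, fell by 1.77 on the log2 scale, and the zygotic form *wee1.S* rose from 21.5 and 28.1 CPM to 107 and 80.3 CPM. Of the 44 copies on the whole list of pairs 15 rose, 16 fell and 13 did not pass in M/Z, the same numbers as in +/Z, with 12 and 15 called the same way in both crosses. The M/Z shares were 34.1% and 36.4%, against 16.7% and 15.6% of all genes tested. Early zygotic genes rose in 27 of 51 tested copies (52.9%), fell in 9 (17.6%, near the share of all genes) and did not pass in 15. Their median was 0.71 in M/Z and 0.62 in +/Z.

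Cell cycle genes showed no common direction. Cyclins and mitotic regulators rose in 16 of 68 tested copies (69 listed) and fell in 18, with a median log2 change of 0.04 (-0.17 without a composition factor), and replication and checkpoint genes rose in 10 of 56 and fell in 14, with a median of -0.01 (0.13 with upper-quartile factors). The risen shares of 23.5% and 17.9% and fallen shares of 26.5% and 25% stand against 16.7% and 15.6% of all genes tested. The checkpoint kinase *chek1.S*, active at the midblastula transition, fell from 62.0 and 64.1 CPM to 11.8 and 22.3 CPM, and the origin-firing kinase *cdc7.L* from 39.8 and 42.5 CPM to 6.77 and 10.1 CPM. Cyclin *ccnb3.S* rose from 5.05 and 6.44 CPM to 174 and 101 CPM. The genes *ccng1.L* and *plk2.L*, which respond to p53 in mammals, rose with the higher level in stage 10.5 replicate 2. *ccng1.L* at 0.977 and 1.63 CPM and then 51.0 and 84.0 CPM, and *plk2.L* at 1.67 and 1.13 CPM and then 30.0 and 48.2 CPM. Glycolysis enzymes rose in 8 of 32 tested copies (35 listed) and fell in 5, 25% and 15.6% against 16.7% and 15.6% of all genes tested. *gapdh.S* rose from 1.79 and 2.48 CPM to 14.4 and 8.60 CPM, and *pgam1.S* fell from 83.4 and 90.2 CPM to 13.7 and 33.8 CPM.

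Cytoplasmic ribosomal protein genes rose without exception among the copies that passed. Of 113 tested copies (114 listed), 86 rose, 76.1% against 16.7% of all genes tested, and 27 did not pass. The median log2 change was 1.25 against 0.02 over all tested genes, and 0 fell by edgeR, by DESeq2 or at an unadjusted p under 0.05. Their summed level was 1860 and 2420 CPM at stage 9 and 5680 and 3470 CPM at stage 10.5. *rpl3.L* was at 68.4 and 84.7 CPM at stage 9 and at 216 and 127 CPM at stage 10.5 (1.16 ± 0.24, edgeR adjusted p = 0.0058), and *rps21.S*, one of the larger changes, at 1.14 and 1.89 CPM and then 15.1 and 7.74 CPM. In +/Z 111 copies rose, with a median of 2.03 and summed levels of 1710 and 1680 CPM and then 5620 and 7430 CPM, and all 86 copies called in both crosses had the smaller rise in M/Z. All 113 copies were higher in M/Z stage 10.5 replicate 1 than in replicate 2, with a median log2 ratio of -0.78, and 4 of 113 were higher in replicate 1 of the +/Z pair. The stage 10.5 sum of M/Z replicate 1 thus lay beside the lower of the +/Z sums, and that of replicate 2 below both. Without replicate 2 104 copies rose in M/Z, and without replicate 1 42. The difference between the crosses passed for 0 of 113 copies by edgeR and 6 were called by DESeq2. At an unadjusted p under 0.05 by edgeR there were 50, against 11.2% of all tested genes. Reads of near-identical ribosomal protein copies may be divided between them by the quantification.

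**Figure D4:**
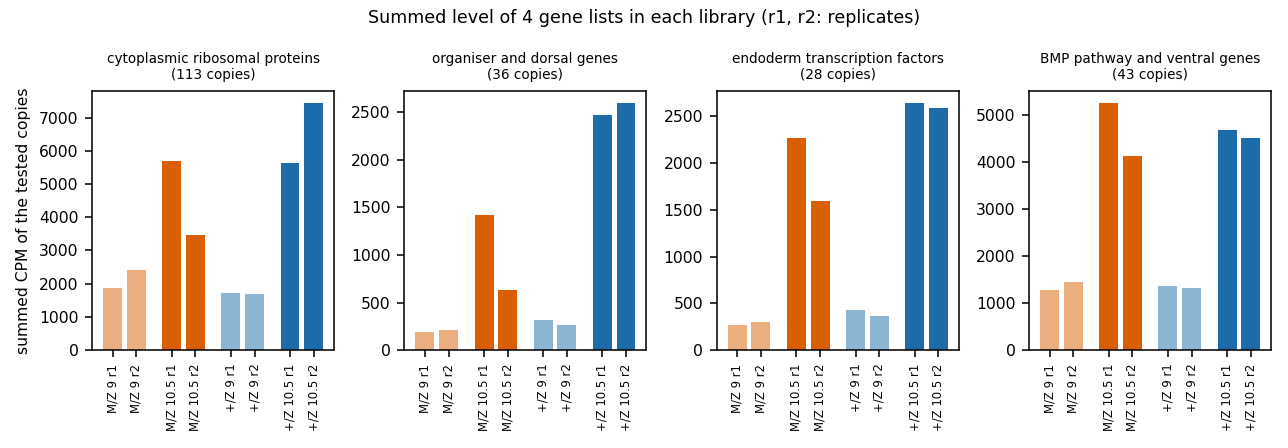
Summed CPM of the tested copies of 4 gene lists in each of the 8 libraries (bars from 0; r1 and r2 are the replicates), with M/Z in orange, +/Z in blue and stage 9 in the paler shade. In M/Z stage 10.5 the ribosomal protein sums are 5680 and 3470 CPM, the organiser sums 1420 and 631 CPM and the BMP and ventral sums 5260 and 4140 CPM.

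The size of the change in each M/Z pool was set against that of +/Z, over the genes called in +/Z. For the 5928 genes that rose in +/Z, the median log2 change from the stage 9 mean was 1.2 in M/Z replicate 1 and 0.82 in replicate 2, 72.2% and 49.0% of the 1.66 in +/Z. For the 5905 genes that fell in +/Z it was -1.16 and -0.67, 84.0% and 48.4% of -1.38. Because these genes were chosen for their change in +/Z, the +/Z value is raised by the choice. When the 500 largest rises and falls were instead chosen in 1 +/Z replicate number and the +/Z change was measured in the other, an alternative added after the data were seen, the risen genes gave 94.5% and 93.4% for replicate 1 and 75.3% and 74.1% for replicate 2, and the fallen genes 85.1% and 78.3% against 48.2% and 44.8%. Replicate 2 had the smaller share in each of these choices. Counted by pool, 3167 genes were at least 2-fold above both stage 9 M/Z pools in replicate 1 and 2194 in replicate 2, and 3650 and 1545 were at least 2-fold below both. The +/Z pools gave 3566 and 3858 genes above and 3888 and 4026 below.

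The risen genes whose stage 10.5 M/Z pools differed most, given as a description because they were chosen for it, were mostly members of the organiser list. They were the potassium channel *kcnk6.S*, at 19.3 CPM in replicate 1 and 1.85 CPM in replicate 2, *chrd.L* and *cer1.S*, the organiser BMP ligand *admp.S*, at 57.1 and 10.8 CPM, and *otx2.S*, at 23.1 and 4.53 CPM. Among fallen genes they were *btg3.S*, *foxi2.S*, *ccnb5.L*, the matrix-associated signalling gene *cyr61.L*, at 1.41 CPM in replicate 1 and 9.18 CPM in replicate 2, and *tmem19.L*, at 1.27 and 6.50 CPM. In the +/Z stage 10.5 pools the ratio of replicate 1 to replicate 2 for these genes ran from 0.375 for *tmem19.L* to 1.97 for *kcnk6.S*.

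The stage change of 12 genes differed between the crosses, and in 5 of them the M/Z change was the higher. LOC100487224.L was at 0.429 and 0.253 CPM at stage 9 and at 34.7 and 18.15 CPM at stage 10.5 in M/Z, and stayed at or under 0.382 CPM in the 4 +/Z libraries. *atp6a1* rose in M/Z from 0.262 and 0.281 CPM to 28.3 and 14.8 CPM (6.29 ± 0.41, edgeR adjusted p = 2.1e-05), and in +/Z it was at 10.5 and 9.16 CPM and then 17.4 and 15.7 CPM. LOC108705686, listed as XB22063314.L and the homeolog of a gene among the 10 largest rises, rose in M/Z from 0.310 and 0.113 CPM to 39.7 and 33.4 CPM, from a +/Z level of 10.1 and 9.2 CPM at stage 9 that rose to 48.8 and 23.9 CPM. LOC108719533 rose in both crosses, in M/Z from 16.95 and 18.12 CPM to 237 and 209 CPM. The chromatin-associated kinase *vrk1.L* did not pass in M/Z, at 52.8 and 71.3 CPM and then 87.6 and 69.7 CPM, and fell in +/Z.

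In the other 7 genes M/Z began higher and changed less. The sialyltransferase *st3gal1.S* was at 19.1 and 20.2 CPM at stage 9 and at 10.5 and 14.2 CPM at stage 10.5 in M/Z, and in +/Z at 0.387 and 0.420 CPM and then 11.9 and 8.03 CPM. The kinase *cdk15.L* was at 45.9 and 42.9 CPM and then 60.9 and 48.8 CPM in M/Z (0.31 ± 0.28, edgeR adjusted p = 0.43). The chaperone *hsp90aa1.1.L* rose in M/Z from 4.58 and 3.60 CPM to 7.64 and 7.06 CPM (0.84 ± 0.28, edgeR adjusted p = 0.041), and the methyltransferase *comt.L* from 7.65 and 8.16 CPM to 24.2 and 12.48 CPM. LOC108699357 rose in M/Z from 38.1 and 42.5 CPM to 74.4 and 56.1 CPM. The semaphorin receptor *plxnb1.L*, at 5.32 and 6.47 CPM and then 6.26 and 4.44 CPM, and Xelaev18047150m, at 5.27 and 10.2 CPM and then 5.82 and 6.56 CPM, did not pass in M/Z, and their stages overlap. In +/Z all 7 rose, Xelaev18047150m from 0 counts, at least 18.0-fold.

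**Figure D5:**
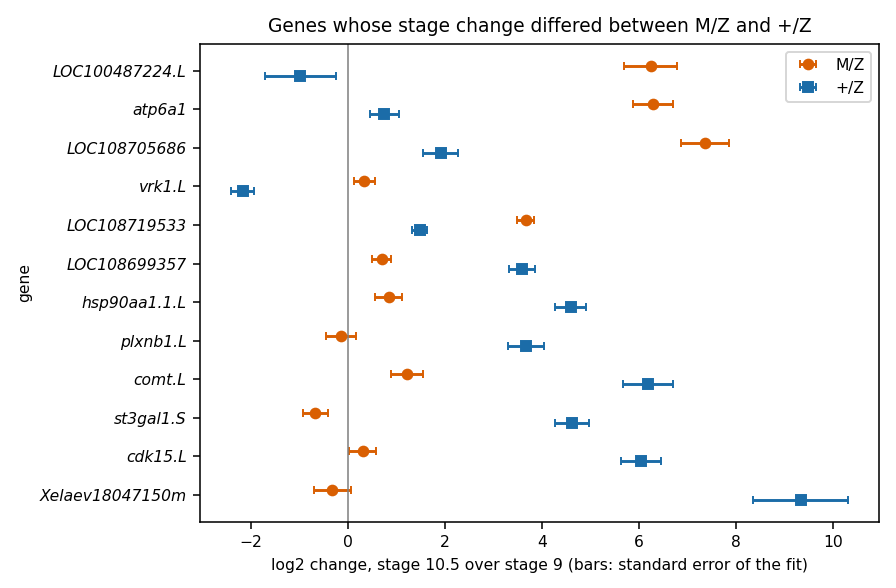
Fitted log2 change from stage 9 to stage 10.5 in M/Z (orange circles) and +/Z (blue squares) for the 12 genes whose change differed between the crosses, ordered by that difference. Bars are standard errors worked out from the change and the F statistic of its test. The 5 upper genes have the higher change in M/Z, such as 6.29 against 0.75 for *atp6a1*, and the +/Z value of Xelaev18047150m, at 0 counts at stage 9, depends on the prior count.

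The list of genes that the study itself names for these embryos, which are not independent of these samples, comprised 32 tested copies. It also counted the relatives *nodal3.2.L*, *wnt5b.L* and *wnt5b.S*, and *odc1* and *fgfr1*, which the study used to normalise RT-PCR. Of these, 17 rose, 4 fell and 11 did not pass in M/Z, with a median log2 change of 0.96. The risen share was 53.1%, against 16.7% of all genes tested, and the fallen share was below the 15.6% of all genes tested. The same list held 21 risen and 4 fallen copies in +/Z, with a median of 2.24. Among those not yet described, the gastrula-specific gene *gs17.L* rose from 60.2 and 76.1 CPM to 636 and 298 CPM (2.78 ± 0.33, edgeR adjusted p = 0.00034). Ornithine decarboxylase, a polyamine enzyme often used to normalise, rose as well, *odc1.L* from 491 and 562 CPM to 1140 and 861 CPM. The neural factor *sox2.L* did not pass, at 3.81 and 5.21 CPM and then 5.82 and 5.61 CPM.

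Opposite calls were rare. There were 8 genes that rose in M/Z and fell in +/Z, and 13 that fell in M/Z and rose in +/Z, and for none of these 21 did the difference pass, with edgeR adjusted p from 0.085 to 0.2. The Wnt receptor *fzd6.S* rose in M/Z from 0.620 and 0.507 CPM to 3.17 and 1.94 CPM and fell in +/Z from 6.61 and 5.88 CPM to 2.29 and 0.998 CPM. The endoplasmic reticulum chaperone *hspa5.S* fell in M/Z from 179 and 201 CPM to 123 and 142 CPM and rose in +/Z from 207 and 215 CPM to 289 and 319 CPM. The receptor and the chaperone were picked out after their values were seen.

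The *X. laevis* genome holds many genes as a pair of L and S copies from its 2 subgenomes. Of 4568 pairs with both copies tested, both copies rose in 447 and both fell in 496, 1 copy rose alone in 648 and 1 fell alone in 833, and 2081 pairs did not pass in either copy. In 63 pairs (1.38%) the copies were called in opposite directions, so that of the 1006 pairs with both copies called 93.7% had the same direction. In the pair of the mitotic kinase gene *nek2*, *nek2.S* fell from 119 and 124 CPM to 89.6 and 71.4 CPM while *nek2.L* rose from 0.143 and 0.0563 CPM to 15.7 and 5.76 CPM. In the *ccng1* pair *ccng1.S* fell from 83.3 and 78.0 CPM to 20.2 and 43.2 CPM while *ccng1.L* rose. Both pairs had the same directions in +/Z, where the fall of *nek2.S* did not pass (-0.30, edgeR adjusted p = 0.16). These pairs were chosen after their values were seen. Among the L copies 16.0% rose and 17.7% fell, and among the S copies 16.4% and 19.0%.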

How the data were processed

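RNA-seq libraries were made from pools of 3 whole embryos in 4 groups of 2. The authors mapped paired-end reads to the *X. laevis* genome, version 9.2, with bowtie2 and deposited RSEM expected counts per gene as whole numbers (RSEM version 1.3.0 in the submitters' processing notes). RSEM divides reads among near-identical copies, and the strand setting of the quantification is not given in the sources used here. All 8 columns of counts matched a sample, and 0 were left unmapped. Of 15545 LOC identifiers, 3698 had a symbol in RefSeq's gene table, used for names only.

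The counts were tested with edgeR 4.0.16 (R 4.3.3): genes kept by filterByExpr, TMM scaling, 1 quasi-likelihood fit to the 4 groups over all 8 libraries, which assumes a shared spread, and Benjamini-Hochberg adjustment over the 25448 genes tested, with calls at an adjusted p under 0.05. The contrasts were stage 10.5 against stage 9 in M/Z, the same in +/Z, and the difference between these changes. The standard errors given are approximate: the absolute log2 change divided by the square root of the F statistic of its test. Changes of single libraries used log2 CPM with a prior count of 2. DESeq2 1.42.0, other scalings and filters, summed homeologs, a replicate block and leaving out each library were the alternatives. The code was tested on simulated data. The replicates of every group differed by more than counting noise (chi-square per degree of freedom 16.4 to 52.7), so each counted as 1 sample.

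Named genes were the 10 largest rises and 10 largest falls among called genes with a symbol, a mean of at least 10 CPM in the higher stage and no overlap between stages; every gene called in the difference; list members with high levels or large changes; genes that the study names for embryos; and the 5 risen and 5 fallen genes whose stage 10.5 M/Z replicates differed most. The list of genes that the study names also held close relatives and the normalisers *odc1* and *fgfr1*. The members, lists and tests were chosen with earlier results of these data known. Promoter motifs were not analysed here.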

Additional observations from a re-analysis of the deposited data

Results flagged for a closer look

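The stage change differed between M/Z and +/Z embryos, by the edgeR test of that difference with Benjamini-Hochberg adjustment over all genes tested, in 12 genes. The log2 change was higher in M/Z by 5.54 ± 0.502 (SE) for atp6a1 (edgeR adjusted p = 0.0065), 2.19 ± 0.225 for LOC108719533 (edgeR adjusted p = 0.015), 5.46 ± 0.597 for LOC108705686 (edgeR adjusted p = 0.02), 7.22 ± 0.892 for LOC100487224.L and 2.51 ± 0.321 for vrk1.L (edgeR adjusted p = 0.034 for both). The difference of M/Z from +/Z was -5.28 ± 0.438 for st3gal1.S and -5.73 ± 0.498 for cdk15.L (edgeR adjusted p = 0.0065 for both), and -3.75 ± 0.418 for hsp90aa1.1.L and -2.90 ± 0.328 for LOC108699357 (edgeR adjusted p = 0.02 for both). It was -3.81 ± 0.484 for plxnb1.L and -4.97 ± 0.633 for comt.L (edgeR adjusted p = 0.034 for both). In +/Z at stage 9 comt.L was at 2 and 4 counts and cdk15.L at 7 and 7 counts, so their differences rest on few counts. For Xelaev18047150m the fitted difference was -9.66 ± 1.126 (edgeR adjusted p = 0.034), which depends on the prior count because the gene was at 0 counts in +/Z at stage 9.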

How the results depend on the processing

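The M/Z calls were 4239 risen and 3980 fallen, and leaving out 1 library at a time gave 1884 to 4697 risen and 1448 to 4636 fallen. In +/Z this range was 3622 to 6091 risen and 4003 to 6336 fallen. A 2-fold minimum left 2587 fallen M/Z genes. The difference of 5 higher and 7 lower became 111 and 167 with DESeq2, 498 and 417 without a filter on low counts, 2 and 4 with at least 10 counts in every library, and 0 to 433 and 0 to 299 leaving out 1 library. The cause was not tested. For the pool spread, the choice of 500 genes in 1 +/Z replicate, added after seeing the data, gave 94.5% and 93.4% for replicate 1 and 75.3% and 74.1% for replicate 2 over risen genes, and the 500 largest falls gave 55.7% for replicate 1.

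Of 3141 values of 188 named genes, 2984 kept their direction and side of the threshold, 103 lost the call, 42 gained it and 12 changed sign. With homeologs summed, which adds the other copy's counts, the log2 change became 0.27 for plxnb1.L, -0.74 for myod1.S, 0.42 for sia1.S, -0.08 for gmnn.S, 0.27 for ccng1.S and -0.42 for nek2.L. With upper-quartile factors it became 0.00 for plxnb1.L and 0.07 for sox3.S. Leaving out M/Z libraries 1 at a time gave -0.73 to 0.22 for Xelaev18047150m (positive without stage 9 replicate 2), -0.41 to 0.08 for plxnb1.L (positive without stage 10.5 replicate 2), and -0.64 to 1.02 for nodal3.1.L and -0.81 to 1.32 for foxc2.S (both negative without stage 10.5 replicate 1).

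The replicate numbers were not used to pair the samples, because the labels do not say whether pools with the same number shared a clutch or batch. The correlation of replicate differences between groups ran from -0.132 to 0.173, which cannot settle this. With a replicate block 4076 genes rose and 3989 fell in M/Z, 5754 and 5869 in +/Z, and the difference was 4 higher and 5 lower.

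With 2 pools a group, leaving out 1 library leaves a lone pool that is assumed to vary like the other groups. The depth sets a floor of 0.0715 to 0.0925 CPM in M/Z, below which presence was not detectable.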
